A study of Mus musculus with 10 samples.

Results

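The insulin-like growth factor (IGF) axis was followed through 10 genes picked by name: the ligand gene Igf1, the receptor genes Igf1r and Igf2r, and the binding protein genes Igfbp1 to Igfbp7. All 10 had a row among the 30431 rows of each table. RNA came from whole kidneys of 10 mice, all at postnatal day 21 and each its own library. There were 3 kidneys with the genotype Pkhd1Cre; Pkd2 F/F; miR-21null (DM), 3 with Pkhd1Cre; Pkd2 F/F (SM) and 4 labelled wild-type (WT). Pkhd1Cre expresses Cre recombinase under Pkhd1 control, which is active mainly in the collecting duct, and Pkd2 encodes polycystin-2, the ion channel lost in a form of polycystic kidney disease. SM and DM share the Pkd2 deletion, so DM against SM is the comparison that bears on miR-21. The same 4 WT libraries stand in both comparisons with WT.

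IGF-1 and IGF-2 are small secreted hormones that act through the IGF-1 receptor, a tyrosine kinase that feeds the PI3K-AKT and MAPK pathways. The IGF-2 receptor, also the cation-independent mannose 6-phosphate receptor, takes IGF-2 up for degradation. Secreted IGF-binding proteins hold the hormones in the circulation or at the cell surface and are cut by proteases such as PAPP-A. Liver makes most circulating IGF-1, and several of these genes are also expressed in kidney.

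The tables hold 1 value per comparison and none per library. Fold changes on the log2 scale and their p-values are those of the authors' deposited tables, from edgeR's likelihood ratio test, and a gene is called where the adjusted p over all rows is below 0.05. The error given is the standard error (SE) implied by each test, with an approximate 95% interval. Group means in CPM (counts scaled to library size) were derived from the deposited average and fold changes. They carry no error, and how deeply each library was sequenced is unknown. Summed over all rows, these means are higher in WT than in DM or SM. In whole kidney fewer cells of a type and less RNA per cell cannot be told apart. Nothing in the labels says more of the animals than genotype, age and tissue, so other differences between the groups, such as litter or sex, cannot be told apart from genotype. The p-values set each group difference against the spread in the authors' fit across all genes. Kidney genes stood high, with Umod at an average of 3174 CPM and Slc34a1 at 3169 CPM over the 10 libraries. In the authors' deposited tables Pkd2 had a log2 fold change of -0.49 in DM against WT (adjusted p = 0.0838) and -0.41 in SM against WT (adjusted p = 0.179), which did not pass. The row averages Cre-expressing and other cells of the kidney.

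The gene starts of Igfbp2 and Igfbp5 are shown because these adjacent genes were called in opposite directions, and that of Igfbp1 because its unadjusted p in DM against SM was the lowest of the members. Each sequence is the RefSeq window on GRCm38.p6 from 250 bases before to 50 after a gene start, read 5′ to 3′ on the gene's strand. Capitals mark any of 5 words on either strand. The first was GGGCGG, the GC box. The next was TATAAA, the TATA box, followed by CCAAT, the CCAAT box. Another was TGACGT, a part of the cAMP response element. The last was CAAAACA, the core of the insulin response element described in IGFBP1 promoters and bound by FOXO factors. No word contains another.
Igfbp2, chr1:72824230-72824529, plus strand: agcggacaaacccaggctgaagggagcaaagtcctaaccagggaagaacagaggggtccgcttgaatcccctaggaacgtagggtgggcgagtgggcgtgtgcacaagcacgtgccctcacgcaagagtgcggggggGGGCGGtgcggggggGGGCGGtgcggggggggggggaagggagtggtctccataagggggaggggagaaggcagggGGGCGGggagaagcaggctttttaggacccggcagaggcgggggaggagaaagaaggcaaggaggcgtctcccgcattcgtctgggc
Igfbp5, chr1:72874816-72875115, minus strand: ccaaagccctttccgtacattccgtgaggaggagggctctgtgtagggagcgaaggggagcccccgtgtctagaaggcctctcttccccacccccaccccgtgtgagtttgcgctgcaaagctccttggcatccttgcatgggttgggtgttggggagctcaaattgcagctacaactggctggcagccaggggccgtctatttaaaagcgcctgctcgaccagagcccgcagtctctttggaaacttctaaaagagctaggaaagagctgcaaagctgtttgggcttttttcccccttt
Igfbp1, chr11:7197537-7197836, plus strand: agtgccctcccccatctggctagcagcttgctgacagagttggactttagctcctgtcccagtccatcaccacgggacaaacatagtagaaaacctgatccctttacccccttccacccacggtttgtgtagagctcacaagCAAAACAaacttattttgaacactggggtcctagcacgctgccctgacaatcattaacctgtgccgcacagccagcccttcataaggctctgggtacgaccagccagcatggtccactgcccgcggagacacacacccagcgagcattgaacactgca

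The printed Igfbp2 window held GC boxes and none of the other words, the Igfbp5 window held none of the 5, and the Igfbp1 window held the insulin response core. A further window listed for Igfbp2, chr1:72825137-72825436, is not printed. It held none of the 5 words, GC box included, and G and C made up 57.3% of it. Among the 11 windows listed for the 10 genes, 4 held GGGCGG, against 35.7% of 32851 RefSeq windows. CAAAACA was in 1 of 11, against 6.28%, TATAAA in 2 (13.6%), CCAAT in 2 (37.4%) and TGACGT in 1 (7.51%). G and C made up 67.0% of the printed Igfbp2 window, 56.3% of that of Igfbp5 and 54.3% of that of Igfbp1, against a median of 52.7% over all windows. These are matches of letters and not measured binding.

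The microRNA removed in DM is printed because direct targets of a microRNA usually carry the complement of its seed, bases 2 to 8, which is in capitals.
miR-21a-5p, chr11:86584120-86584141, minus strand: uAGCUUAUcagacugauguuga

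The word ATAAGCT, complementary to that seed, or TAAGCTA, its form shifted by a base with a final A, was in the longest annotated 3′ UTR of 0 of the 10 members. Of 12825 coding genes averaging 1 CPM or more, 8.12% held ATAAGCT and 12.7% held either word, searched on the sense strand. The UTRs searched ranged from 209 bases for Igfbp6 to 7267 for Igf1r.

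SM kidneys, of the genotype Pkhd1Cre; Pkd2 F/F, had a large increase in Igfbp2 against WT and smaller decreases in Igfbp4 and Igfbp5. Igfbp2 encodes a binding protein with a preference for IGF-2. In SM against WT the authors' deposited table called 3 of the 10 members, 1 of them higher and 2 lower. The background was 14.0% of all rows called, 7.87% higher and 6.09% lower. Among the 15135 rows averaging 1 CPM or more (expressed rows), where all 10 members lie, 21.6% were called, 12.2% higher and 9.47% lower, so a few calls among 10 expressed genes are no result about the members. Their median log2 fold change was -0.18, against -0.01 over the expressed rows.

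**Figure D1:**
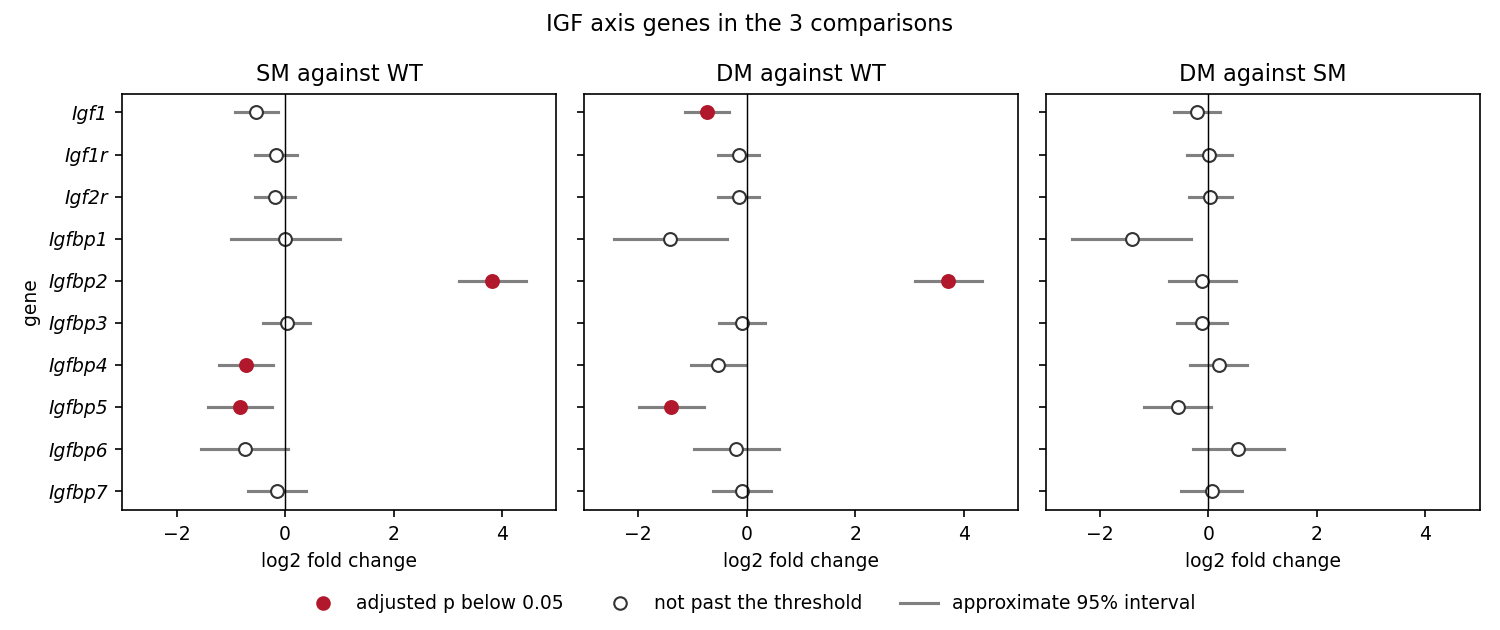
Log2 fold change (x axis) of each of the 10 genes (rows) in the 3 comparisons named above the panels, from the authors' deposited tables. Lines are approximate 95% intervals from the implied SE, and filled points passed an adjusted p of 0.05. Igfbp2 stands alone at 3.82 in the left and 3.71 in the middle panel, and no point is filled on the right.

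Igfbp2 averaged 225 CPM in DM, 243.2 CPM in SM and 17.2 CPM in WT. Its log2 fold change against WT was 3.82 in SM kidneys by the authors' deposited table (adjusted p = 3.10e-30, implied SE 0.32), a 14.1-fold difference with an interval of 9.20 to 21.7. In DM kidneys it was 3.71 by the authors' deposited table (adjusted p = 1.30e-28, implied SE 0.31), or 13.1-fold (8.53 to 20.1). By p-value the gene was number 11 of 30431 rows in DM against WT and number 12 in SM against WT. By size of increase it was number 54 of the 15135 expressed rows in DM against WT and number 32 in SM against WT. Where the deposited average is read as a mean of log2 values, the group means become 403 CPM in DM, 435 CPM in SM and 30.8 CPM in WT, with the same fold changes.

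Igfbp5 encodes a binding protein that also attaches to extracellular matrix. It averaged 412 CPM in DM, 610 CPM in SM and 1082 CPM in WT. By the authors' deposited tables it fell in DM kidneys to 0.380 times the WT mean (interval 0.251 to 0.576, adjusted p = 0.000150) and in SM kidneys by 0.83 on the log2 scale (adjusted p = 0.0427, implied SE 0.30). The DM mean lay below the SM mean by 0.57 on the log2 scale, with an interval of -1.18 to 0.05 (unadjusted p = 0.0713, adjusted p = 1) in the authors' deposited table, so this step did not pass.

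Igfbp4 encodes a binding protein that PAPP-A cuts. It averaged 575 CPM in DM, 504 CPM in SM and 833 CPM in WT. By the authors' deposited table it fell by 0.72 on the log2 scale in SM kidneys (adjusted p = 0.0357, interval of the log2 fold change -1.22 to -0.22). In DM against WT the authors' deposited table gave -0.53 (adjusted p = 0.168, implied SE 0.25), which did not pass, and DM against SM gave 0.19 with an interval of -0.34 to 0.71. At a stricter threshold of 0.01 the calls of Igfbp4 and Igfbp5 in SM against WT end, which leaves Igfbp2 as the member called.

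Igf1 averaged 35.7 CPM in DM, 41.3 CPM in SM and 59.5 CPM in WT, so WT had the highest mean. By the authors' deposited table it fell by 0.73 on the log2 scale in DM kidneys (adjusted p = 0.00499, implied SE 0.21), to 0.601 times the WT mean with an interval of 0.454 to 0.795. In SM against WT the authors' deposited table gave -0.53 (adjusted p = 0.0662, implied SE 0.21), outside the threshold. The difference between the mutants was -0.21 (-0.63 to 0.22), so a change of Igf1 with miR-21 loss was not shown.

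The receptor genes did not pass in any comparison. Igf1r averaged 175 CPM in DM, 173 CPM in SM and 194 CPM in WT, with log2 fold changes of -0.15 (interval -0.53 to 0.23) in DM against WT and -0.17 (-0.55 to 0.21) in SM compared with WT in the authors' deposited tables. Igf2r averaged 97.1 CPM in DM, 94.8 CPM in SM and 108 CPM in WT. Its log2 fold changes were -0.15 (-0.53 to 0.23) in DM against WT and -0.19 (-0.56 to 0.19) in SM compared with WT in the authors' deposited tables. For either receptor gene the intervals leave no room for a doubling or a halving of the mean against WT. Airn, an RNA transcribed antisense across the start of Igf2r, averaged 6.89 CPM over all libraries and shares no exon with it in the annotation.

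Among the remaining binding proteins, Igfbp7, a weak IGF binder found in vessel walls, and Igfbp3, the main carrier in blood, had nearly level means. Igfbp7 averaged 1020 CPM in DM, 980 CPM in SM and 1083 CPM in WT, with a log2 fold change of -0.09 (interval -0.62 to 0.45) in DM against WT and -0.14 (-0.68 to 0.39) in SM compared with WT in the authors' deposited tables. Its exons overlap those of Polr2b on the other strand, and the sources used here do not say whether counting used strand. Igfbp3 averaged 203 CPM in DM, 221 CPM in SM and 217 CPM in WT, and its log2 fold changes of -0.09 (-0.52 to 0.34) in DM against WT and 0.03 (-0.40 to 0.46) in SM against WT did not pass in the authors' deposited tables. Igfbp6, an IGF-2 binder, was the lowest member at 4.42 CPM in DM, 3.01 CPM in SM and 5.05 CPM in WT. In SM against WT Igfbp6 had a log2 fold change of -0.75 (-1.54 to 0.05, adjusted p = 0.259) in the authors' deposited table.

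In DM against WT the authors' deposited table called 3 of the 10 members, Igfbp2 higher and Igf1 and Igfbp5 lower, against 13.5% of all rows (7.55% higher, 5.92% lower) and 19.8% of expressed rows (11.3% higher, 8.53% lower). Igfbp2 and Igfbp5 were called in both comparisons with WT, which share their WT libraries, and Igf1 and Igfbp4 in 1 each. A call in only 1 comparison does not show that DM and SM differ. That difference has its own table, and there edgeR called 0 of 10 members, against 0.0789% of all rows and 0.0859% of expressed rows. An unadjusted p below 0.05 was found for 1140 of all 30431 rows and for 1 member.

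That member was Igfbp1, an acute-phase and insulin-regulated binding protein made mainly by liver. It averaged 8.47 CPM in DM, 22.6 CPM in SM and 22.5 CPM in WT. The DM mean was the low one, with log2 fold changes of -1.41 against SM (interval -2.51 to -0.32, unadjusted p = 0.0111, adjusted p = 0.987) and -1.41 against WT (-2.45 to -0.37, adjusted p = 0.0576) in the authors' deposited tables. SM against WT gave 0.01 (implied SE 0.51) by the authors' deposited table. Its implied SE, 0.51 to 0.56, was the widest among the 10 members in each comparison, and without library values it cannot be said whether the DM kidneys shared the low level.

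**Figure D2:**
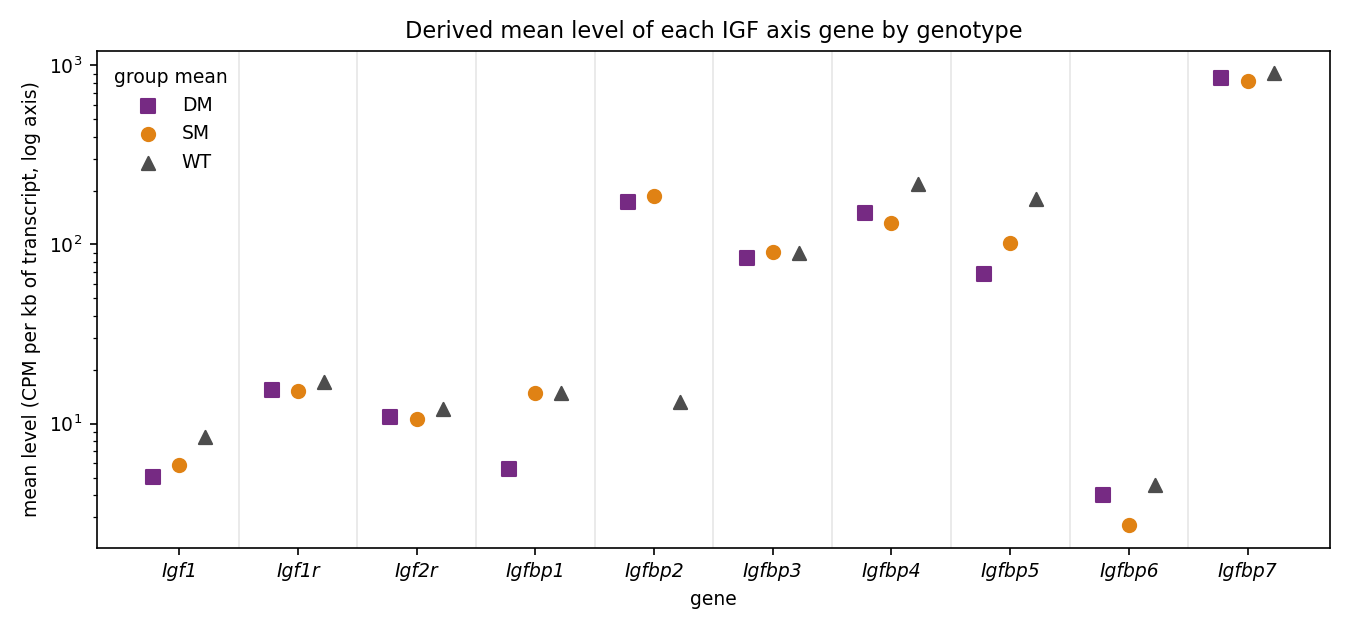
Derived group mean of each gene (x axis) in CPM per kilobase of its longest coding transcript (y axis, log scale), with DM, SM and WT side by side. No error is drawn since the tables hold no library values. Igfbp2 is the gene whose mutant means lie far above its WT mean.

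Per kilobase of the longest annotated coding transcript, Igfbp7 had the highest level of the 10 genes in every group, at 850 CPM per kb in DM, 817 in SM and 902 in WT. Igfbp2 was number 2 in DM (172 CPM per kb) and in SM (186 CPM per kb), and number 7 in WT (13.2 CPM per kb). Igfbp4 followed at 150 in DM and 132 in SM, and was number 2 in WT at 217 CPM per kb. Igfbp2 made up 12.9% of the summed level of the 7 binding proteins in DM, 13.8% in SM and 0.925% in WT. Igfbp5 made up 5.13% in DM, 7.55% in SM and 12.7% in WT. With the deposited average read as a mean of log2 values, the Igfbp2 shares are 20.8% in DM, 22.1% in SM and 1.62% in WT, where it would be number 5. The summed level itself was 1335 CPM per kb in DM, 1345 in SM and 1422 in WT. Derived means of all rows also summed highest in WT. Neighbouring genes in this order could not be compared, since no spread over libraries is given.

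Igfbp2 and Igfbp5 lie tail to tail on chromosome 1, with 5457 bases between Igfbp2 (72824503 to 72852474, plus strand) and Igfbp5 (72857932 to 72874884, minus strand). The nearest expressed genes before the pair, Rpl37a and Smarcal1, had log2 fold changes of -0.08 (adjusted p = 1) and 0.08 (adjusted p = 0.978) in SM compared with WT in the authors' deposited table. On the far side 1700027A15Rik and Tnp1 had deposited averages of 0.0539 and 0.0514 CPM, far below 1 CPM. Other rows without a difference in any comparison share the Tnp1 value, which marks a floor and not a measured level. Igfbp1 and Igfbp3 form a like pair on chromosome 11 with 3539 bases between them, and neither was called. The other members lie alone, Igf1 on chromosome 10, Igf1r on 7, Igf2r on 17, Igfbp4 on 11, Igfbp6 on 15 and Igfbp7 on 5.

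**Figure D3:**
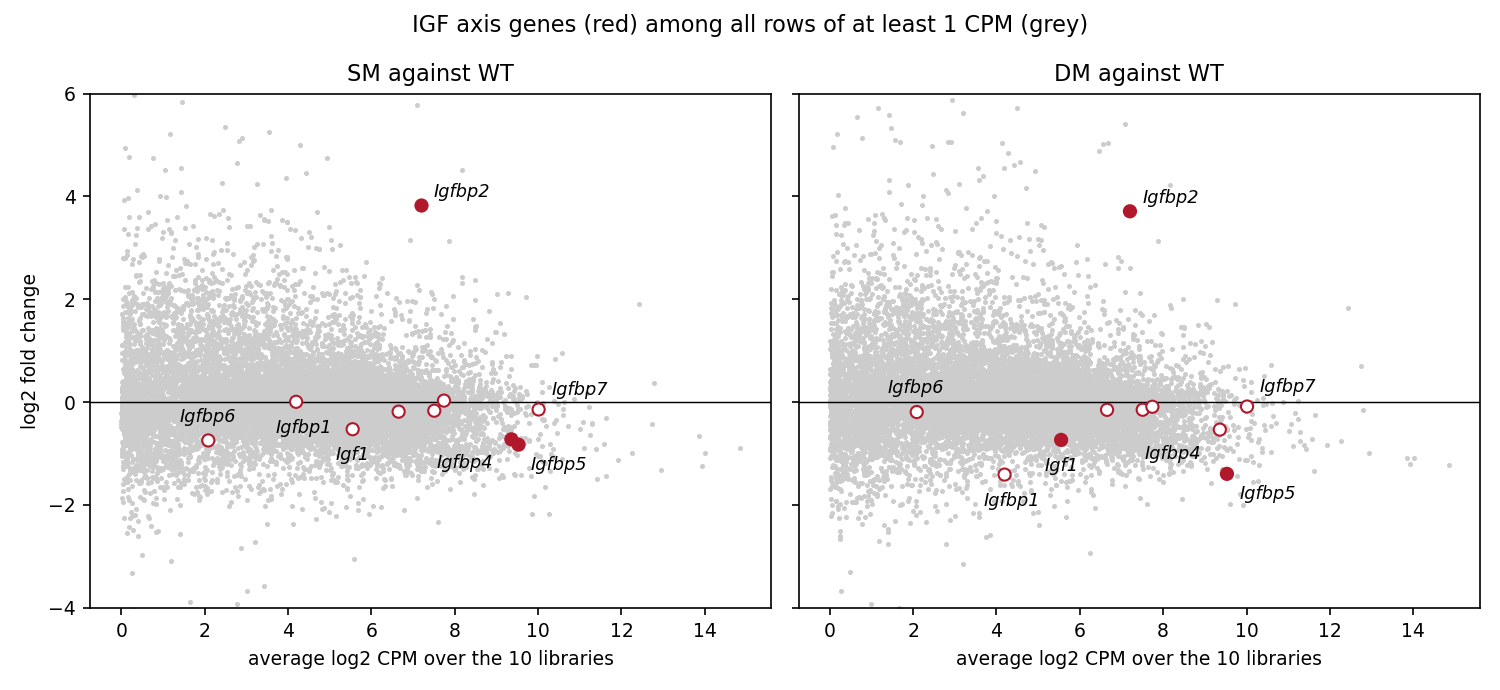
Log2 fold change (y axis) against average log2 CPM over the 10 libraries (x axis) for SM against WT and DM against WT, from the authors' deposited tables. Grey points are rows of at least 1 CPM, red circles the 10 members, filled where called, and rows beyond the limits of the y axis are not drawn. Igfbp2, at 3.82 and 3.71, is the member farthest from 0.

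The genes with fold changes most like those of Igfbp2 in both comparisons with WT, by distance in the plane of these values among 14036 other named rows of at least 1 CPM, were Gdf6, Ms4a6d and Mfi2. Gdf6, a bone morphogenetic protein family ligand, had log2 fold changes of 3.61 in DM against WT and 3.92 in SM against WT. Ms4a6d, a membrane protein gene of myeloid cells, had 3.58 in DM and 3.66 in SM against WT. Mfi2, the melanotransferrin gene, had 3.57 in DM and 4.01 in SM against WT, all from the authors' deposited tables. They averaged 1.04, 5.06 and 1.89 CPM over all libraries, against 147 CPM for Igfbp2. The genes nearest to Igfbp4 were the respiratory chain subunit gene Ndufa7, the proton pump subunit gene Atp6v1g1 and the pyruvate dehydrogenase subunit gene Dlat, each at -0.72 in SM compared with WT in the authors' deposited table. This likeness rests on 3 group means.

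Beyond the members, 68 other genes of the axis in 6 lists were counted. The authors' deposited tables called 20 of them in DM against WT, 14 higher and 6 lower, and 21 in SM against WT, 15 higher and 6 lower. Their share, 29.4% in DM and 30.9% in SM against WT, is read beside 19.8% and 21.6% of expressed rows. Over all rows the shares were 13.5% and 14.0%, and 61 of the 68 were expressed rows. In DM against SM edgeR called 0 of the 68. There 3 of the 68 had an unadjusted p below 0.05, as had 1140 of all 30431 rows. The median log2 fold change of the 68 was 0.12 in DM against WT and 0.11 in SM against WT.

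Of the ligands and receptors other than the members, 1 of 8 was called in each comparison with WT. Insrr, an orphan receptor of the insulin receptor family, fell by 0.83 on the log2 scale in DM and by 1.26 in SM compared with WT in the authors' deposited tables. Igf2, the second ligand, averaged 4.64 CPM in DM, 5.71 CPM in SM and 6.57 CPM in WT and did not pass (adjusted p = 0.462 and 0.908 against WT in the authors' deposited tables). The insulin receptor gene Insr averaged 104 CPM in DM, 103 CPM in SM and 117 CPM in WT, without a call.

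Of 13 genes for complex partners and proteases, 6 were called in each comparison with WT, 4 higher and 2 lower. Mmp7, a matrix metalloprotease that can cleave IGF-binding proteins, averaged 3.16 CPM in DM, 2.39 CPM in SM and 0.0894 CPM in WT, with log2 fold changes of 5.14 in DM and 4.74 in SM against WT by the authors' deposited tables. The intervals were 4.22 to 6.07 in DM and 3.81 to 5.68 in SM. Its WT mean lies near the floor of 0.0514 CPM, so the size of these increases is less certain. Stc2, whose protein inhibits PAPP-A, rose to 42.1 CPM in DM and 53.7 CPM in SM, against 17.6 CPM in WT (adjusted p = 8.81e-06 and 3.42e-09 in the authors' deposited tables). Stc1, its relative, was called in SM against WT, at 0.79 (adjusted p = 0.0320), and not in DM against WT, at 0.70 (adjusted p = 0.0729), in the authors' deposited tables. Adamts1, a matrix protease, rose 2.82-fold in DM and 2.39-fold in SM against WT. The PAPP-A gene itself, Pappa, averaged 23.5 CPM in DM, 25.3 CPM in SM and 21.7 CPM in WT without a call, while Pappa2, a related protease gene, was called in DM against WT at 1.10 (adjusted p = 0.00555) in the authors' deposited table. Igfals, the acid-labile subunit of the circulating complex, averaged 10.2 CPM in DM, 7.91 CPM in SM and 16.7 CPM in WT and fell in SM against WT (log2 fold change -1.08, adjusted p = 0.00771 in the authors' deposited table). Esm1, the endocan gene, was the lower call in DM against WT beside Vtn, at -0.67 (adjusted p = 0.0472) in the authors' deposited table. Vtn, the vitronectin gene, was called lower in both mutants, at -3.31 in DM and -2.98 in SM compared with WT in the authors' deposited tables.

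The CCN family, matrix proteins once called IGFBP-related, were called higher for 4 of 6 genes in DM and 5 of 6 in SM against WT. Cyr61 averaged 142 CPM in DM, 124 CPM in SM and 36.6 CPM in WT, and Wisp1 28.9 CPM in DM, 33.5 CPM in SM and 11.2 CPM in WT. Wisp2, at 0.783 CPM in DM, 1.28 CPM in SM and 0.151 CPM in WT, was also called higher in both. Of the 3 mRNA-binding proteins named for Igf2, 2 were called higher in both comparisons, Igf2bp3 at 3.79 CPM in DM and 3.56 CPM in SM, against 1.26 CPM in WT, and Igf2bp1 with log2 fold changes of 0.73 in DM and 0.93 in SM compared with WT in the authors' deposited tables.

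Of 30 intracellular signalling genes, 2 were called in DM against WT and 4 in SM against WT. The kinase gene Mtor fell by 0.72 in DM and 0.62 in SM on the log2 scale, and the adaptor gene Irs1 fell by 0.81 in SM against WT (adjusted p = 0.00873) in the authors' deposited tables. The kinase gene Akt1 rose by 0.62 on the log2 scale in SM kidneys (adjusted p = 0.0304) by the authors' deposited table. In the growth hormone axis, upstream of Igf1 in liver, 5 of 8 genes were called in DM against WT, 3 higher and 2 lower, and 3 in SM against WT, 2 higher and 1 lower. The receptor gene Ghr averaged 95.9 CPM in DM, 124 CPM in SM and 154 CPM in WT and was called lower in DM against WT (adjusted p = 0.0123 in the authors' deposited table). Stat5a, a transcription factor downstream of the growth hormone receptor, averaged 15.5 CPM in DM, 14.9 CPM in SM and 25.9 CPM in WT. It was the gene of this list called lower in both, by the authors' deposited tables (adjusted p = 0.0252 in DM and 0.0132 in SM against WT). The signal suppressor Socs3 rose by 3.48 in DM and 2.98 in SM, and Socs2, a growth hormone target, by 1.22 in DM and 1.20 in SM compared with WT in the authors' deposited tables. Socs1, another suppressor, averaged 3.37 CPM in DM, 1.31 CPM in SM and 0.668 CPM in WT. It was called higher in DM against WT (log2 fold change 2.34, adjusted p = 0.00212) and not in SM against WT (0.97, adjusted p = 0.363) in the authors' deposited tables.

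**Figure D4:**
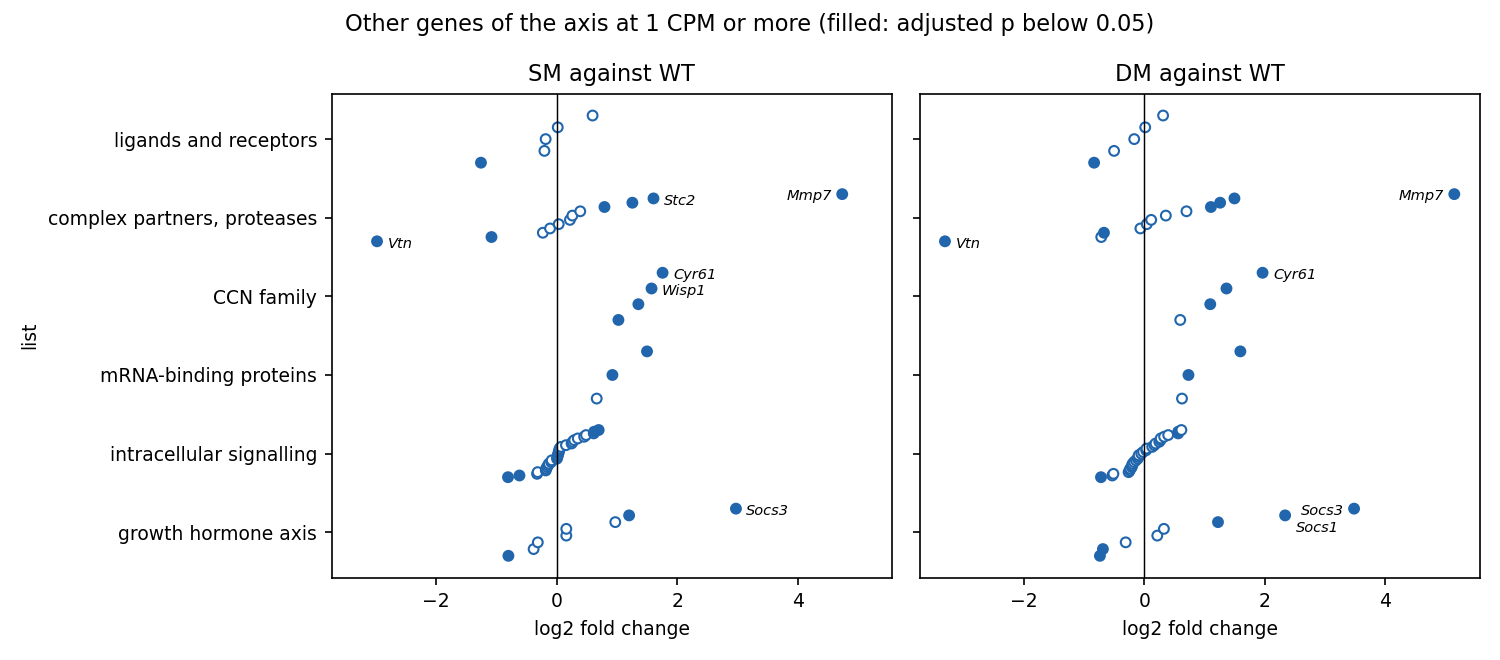
Log2 fold change (x axis) in both comparisons with WT of the 61 other axis genes averaging 1 CPM or more, by list (y axis), from the authors' deposited tables. Each circle is a gene, filled where the adjusted p was below 0.05. The CCN family genes drawn here all lie to the right of 0, while most signalling genes lie near it.

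Marker genes of several cell types moved in the same comparisons, and their part in the members' values was not tested. Hepatocyte markers were called lower for 14 of 20 genes in DM against WT and for 14 of 20 in SM against WT, with 3 and 2 higher. Alb averaged 1.03 CPM in DM, 0.328 CPM in SM and 132 CPM in WT, while the list summed to 224 CPM in DM, 216 CPM in SM and 290 CPM in WT, with Fga and Fgg higher in both mutants. Liver also expresses Igf1, called lower in DM, Igfbp4, called lower in SM, and Igfbp2, called higher in both. Igfbp1, made mainly by liver, was not called, at 8.47 CPM in DM, 22.6 CPM in SM and 22.5 CPM in WT.

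Macrophage markers, a cell type that expresses Igf1, were called higher for 10 of 11 genes in DM and 11 of 11 in SM against WT, and summed to 537 CPM in DM, 539 CPM in SM and 144 CPM in WT. Fibroblast and mural cell markers were called higher for 7 of 13 in DM and 8 of 13 in SM (summed to 3719 CPM in DM, 4494 in SM and 1432 in WT). Endothelial markers were lower for 4 of 12 in DM and 0 of 12 in SM against WT (summed to 1091 CPM in DM, 1361 in SM and 1465 in WT). In SM against WT 2 of the 12 had an unadjusted p below 0.05, as had 7125 of all 30431 rows. Podocyte markers were lower for 3 of 8 in both (summed to 446 CPM in DM, 475 in SM and 675 in WT). Proximal tubule markers were lower for 9 of 12 in DM and 10 of 12 in SM (summed to 9943 CPM in DM, 9007 in SM and 20721 in WT), and thick limb and distal tubule markers for 5 of 8 in both (summed to 5633 CPM in DM, 4972 in SM and 9328 in WT). Markers of principal cells, a cell type of the collecting duct, were higher for 3 of 7 in DM and 5 of 7 in SM (summed to 1167 CPM in DM, 1303 in SM and 858 in WT). In DM against SM 0 genes of these lists were called by edgeR. There 8 had an unadjusted p below 0.05, as had 1140 of all 30431 rows.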

How the data were processed

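Whole-kidney RNA of 10 mice was extracted with a miRNeasy kit and made into stranded total RNA libraries, per the labels' protocols. Without giving their roles, the submitters' processing notes list mm10 and the tools edgeR 3.2.4, featureCounts and Subread 1.4.6, TopHat2 2.0.12 with Cufflinks, and bcl2fastq 1.8.4. The authors deposited 3 comparison tables, and per the file headers each row holds an average log2 CPM, the log2 fold change, a likelihood ratio score, a p-value and a false discovery rate. Checked on the files, the fold changes of the comparisons with WT subtract to those of DM against SM, the deposited p-values follow from the scores by a chi-square distribution, and the Benjamini-Hochberg method over all 30431 rows gives the false discovery rates (tolerance 1e-09). These are tests from the authors' fit across all genes. The sources used here give neither depth per library nor filters, so no counting interval was made.

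The planned count test could not be run, and the deposited test was used, as planned for that case. The implied SE is the absolute log2 fold change over the root of the likelihood ratio. Group means assume that the average is the log of the mean CPM, since the averages sum close to the total that CPM implies. The derived means of all rows summed to 936987 CPM in DM, 945509 CPM in SM and 1.10045e+06 CPM in WT. Levels in the mutants and in WT therefore do not stand on an equal total. The implied SE was tried on simulated counts of equal depth, with the same dispersion setting for every gene, known and not estimated. The trial therefore does not show how well the intervals hold for the authors' fit. The simulation used the same reading of the average, so it could not test the assumption behind the group means. Python 3.11.15, scipy 1.17.1 and pandas 2.3.3 were used, with GENCODE M21 (GRCm38, the assembly mm10 names) for positions and UTRs. RefSeq sequences matched all 10 members.

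Members and lists were chosen with earlier results of these data known. Named genes were the 10 members, up to 3 called genes with the largest change per list, direction and comparison, Igf2, Insr, Ghr, Socs2, Igfals, Pappa, Pappa2, Stc1 and Stc2 whatever their values, and the 3 rows nearest to Igfbp2 and to Igfbp4. Pkd2, flanking genes and the kidney genes Umod and Slc34a1 were named beside that rule, and 1 gene that it names is not reported here. The 20 hepatocyte, 11 macrophage, 13 fibroblast and mural, 12 endothelial, 8 podocyte, 12 proximal tubule, 8 thick limb and distal and 7 principal cell markers are given as counts and summed levels, with Alb, Fga and Fgg the genes named by the rule that are printed. Alternatives were a threshold of 0.01, other sets of rows for the adjustment, a minimum fold of 1.5, recentring, and another reading of the average level.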

Additional observations from a re-analysis of the deposited data

How the results depend on the processing

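With a threshold of 0.01, 1 member is called in SM against WT in place of 3, and the counts in DM against WT and DM against SM hold. Adjusted over the rows of at least 1 CPM, Igf1 in SM against WT (adjusted p = 0.0435) and Igfbp1 in DM against WT (adjusted p = 0.0393) pass by the authors' edgeR p-values. The counts of members and of other axis genes moved by at most 1.5 times under each of the remaining alternatives (a fold of at least 1.5, adjustment over named rows or rows of at least 1 CPM, recentring), and 0 fold changes of the members changed sign. Read as a mean of log2 values, the average gives Igfbp2 means of 403 CPM in DM, 435 CPM in SM and 30.8 CPM in WT, and moved the level of the other 9 members by less than their implied SE. Leaving out a replicate was not run, because the tables hold no library values. No paired analysis was possible because the groups share no replicate number and the tables hold no library values. Igfbp6, at 3.01 to 5.05 CPM, has wide intervals, so moderate changes were not detectable.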
